A study of Mus musculus with 18 samples.

Results

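This report follows 10 mouse genes whose circRNAs have been studied in many laboratories and are known from several mammals: Zfp609, Smarca5, Fbxw7, Cdyl, Rhobtb3, Foxo3, Itch, Asxl1, Rtn4 and Man1a2. A circRNA was counted for a gene when both of its ends lay inside the span of that gene in the mRNA-seq count tables. By this rule 41 of the 16171 circRNAs of the data belonged to 8 of the 10 genes, which were themselves 10 of 55401 annotated genes. The rule used gene names and positions and no read count, but the genes were chosen with earlier results of these data known. The data came from NIH/3T3, a mouse embryonic fibroblast line, in 2 forms: wild-type cells (WT) and cells carrying a CRISPR-Cas9 knockout of Xpo4 (KO), the gene of the nuclear transport receptor Exportin 4. The KO was a single edited line, and nothing else set the groups apart in the labels. RNase R-treated RNA, in which most linear RNA has been digested, was sequenced from the nucleus, the cytoplasm and the whole cell with 2 libraries for each genotype, 12 in all. Expression of the linear transcripts was followed in separate mRNA-seq libraries, with 3 libraries for each genotype.

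A circRNA is made when the end of an exon is spliced back to the start of the same or an earlier exon, so that the joined exons form a closed ring with no cap and no poly(A) tail. Reads that cross this back-splice junction are particular to the circle, and their number is the measure used here. The host genes fall into 3 kinds by what their proteins do. Fbxw7 and Itch are parts of E3 ubiquitin ligases, which mark other proteins for degradation. Foxo3 and Zfp609 encode transcription regulators, and Asxl1, Smarca5 and Cdyl encode chromatin proteins. Man1a2 trims mannose from glycoproteins in the Golgi, Rtn4 (Nogo) shapes the tubules of the endoplasmic reticulum, and Rhobtb3 encodes a protein found at the Golgi and endosomes.

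The junction sequences of the most abundant circles are given here because they are what identifies each circle in the reads. Each line joins the last 15 bases of the last exon of the circle, in lower case, to the first 15 bases of its first exon, in capitals, 5′ to 3′ on the strand of the gene, so that the change to capitals marks the back-splice. The sequences were read from the mouse genome GRCm38, and exons are numbered in GENCODE transcripts.
circFbxw7 exon 4: acaaagacaacaaaaAATGTGAAAACCTTT
circFbxw7 exons 2 to 3: acaaagacaacaaaaTTTGAATTAGTGCTT
circItch exons 10 to 14: ccccagaagccaaggCTTCTGTCAATGGCT
circFoxo3 exon 3: aaatgggcaaagcagAACTCCATCCGGCAC
circZfp609 exon 2: gtcaagtctgaaaagCAATGATGTTGTCCA
circAsxl1 exons 2 to 4: cttttcacactcaagGTGTTAGAAAACTAC
circMan1a2 exons 7 to 12: tgctgaaacattaaaTGGAGTAGGTCGAAA
circMan1a2 exons 9 to 12: tgctgaaacattaaaATCACACATCAGTTG
circMan1a2 exons 7 to 9: gacgatgctgttgagTGGAGTAGGTCGAAA
circRhobtb3 exons 4 to 8: tctttgaaatacaagAAGAATTACCTTGTA
circRhobtb3 exons 5 to 8: tctttgaaatacaagCTGGAGTATTTTATG
circRhobtb3 exons 5 to 7: aaaacaccaggaaagCTGGAGTATTTTATG
circRtn4 exons 4 to 5: gttgattccctgaagTTGTTGACCTCCTGT
Circles of 1 gene share parts of these junctions. The exons of the Fbxw7 circles are numbered in different GENCODE transcripts, and exon 4 of the 14-exon transcript is the same exon as exon 3 of the 13-exon transcript. Both Fbxw7 circles leave from that exon end and differ in the exon they return to, as do the first pair of Man1a2 circles and the first pair of Rhobtb3 circles. The Man1a2 circles of exons 7 to 12 and of exons 7 to 9 return to the same exon start.

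The 12 circRNA libraries differed in depth by fraction. The nuclear libraries held between 2189 and 4383 junction reads, and the other 8 held between 50341 and 81941. Reads counted to genes in mRNA-seq ran from 16974062 to 22057323 per library. Each fraction had its own list of circRNAs made over its 4 libraries. The lowest sums of a listed circRNA were 3 reads (nucleus), 5 (cytoplasm) and 4 (whole cell). Every listed circRNA also had reads in both replicates of a genotype, at least 1 each in the nucleus and 2 each in the other fractions. A circRNA could thus enter a list through the genotype in which it was higher. A circle missing from a list can still be present, not only below those sums, and the 0 entered for it may stand for unlisted reads. A count of 0 allows up to 3 reads, which is between 68.4 and 137 reads per 100000 in the nuclear libraries but between 3.66 and 5.96 per 100000 in the others (counting error alone). In the cytoplasm, replicates of a genotype resembled each other more than the genotypes did. Over the 4803 circRNAs listed in both the cytoplasm and the whole cell, Spearman's rho was 0.853 between the WT and 0.791 between the KO cytoplasmic replicates, and between 0.0354 and 0.174 across genotypes in that fraction (a description across circRNAs, which share the library depths). Across fractions the titled genotype did not set libraries apart in this way. The WT cytoplasm had a rho of 0.362 to 0.411 with the WT and 0.323 to 0.419 with the KO whole cell, and the KO cytoplasm had 0.223 to 0.383 with the KO and 0.27 to 0.379 with the WT whole cell. The titles of these libraries were not tested, so each KO against WT difference below holds only as far as the titles do. Nfix, a host outside this group of genes, had 1849 and 1889 junction reads in the libraries titled WT cytoplasm. In the whole cell it had 10 and 13 in WT but 697 and 686 in KO. Whether the titles or the separate lists lie behind this was not tested. All 8 fibroblast markers examined, among them Col1a1 and Vim, were well expressed in the mRNA libraries, and 0 of 6 blood, 0 of 4 epithelial and 0 of 3 endothelial markers reached a median of 1 FPKM, which matters because the extraction text in the sample descriptions speaks of blood. Nothing in the labels says whether replicates came from separate cultures, and the p-values below measure the spread between these libraries, which may be technical. In bulk RNA, fewer cells with a transcript and less of it in each cell cannot be told apart.

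Rhobtb3 and Man1a2 carried most of the circles. Rhobtb3 had 14, Man1a2 13, Itch 5, Fbxw7 4 and Rtn4 2, and Zfp609, Foxo3 and Asxl1 had 1 each. Smarca5 and Cdyl had none. All 41 circles had both ends on annotated exon edges, with AG just before the first exon and GT just after the last, the bases of the usual splice sites. Many circles of Rhobtb3 and Man1a2 shared an exon edge with another circle of the gene. The 13 Man1a2 circles used 6 exon starts and 8 exon ends, with 7 circles starting at exon 2 and 4 ending at exon 12, the last exon but one of a 13-exon transcript. The 14 Rhobtb3 circles used 7 starts and 7 ends, with 5 starting at exon 3. The 2 Rtn4 circles shared their start at exon 4 and ended at exon 5 or exon 6.

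**Figure D1:**
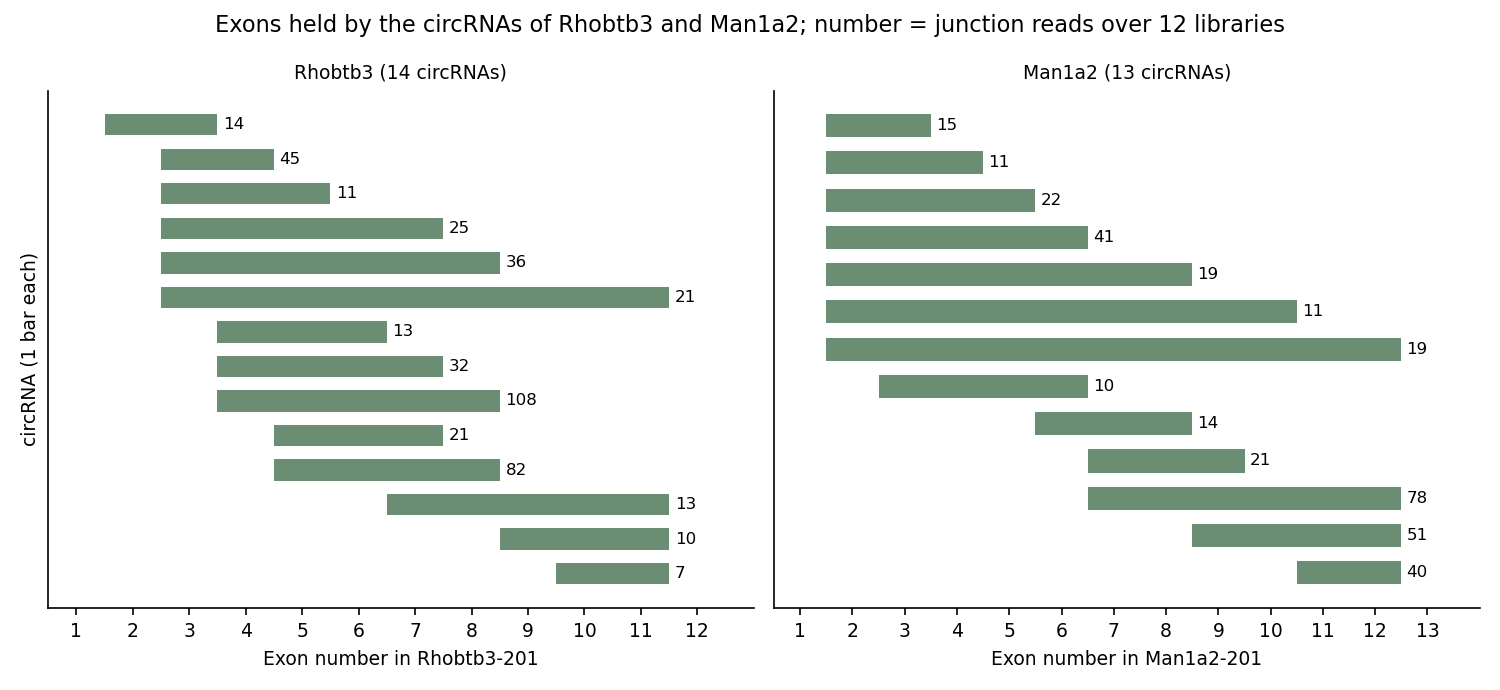
Exons held by each circRNA of Rhobtb3 (left) and Man1a2 (right), with the exon number on the horizontal axis and 1 bar for each circle; the number beside a bar is its junction reads summed over the 12 libraries. The Rhobtb3 circle of exons 4 to 8 has most reads of its gene with 108 and the Man1a2 circle of exons 7 to 12 most of its gene with 78.

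The circles were made of internal, mostly coding exons beside long introns. The median spliced length of the 41 circles was 625 nt, against 517.5 nt for the 15426 circRNAs of the data with both ends on exon edges, and the median number of exons was 3 against 4. The intron before the first exon had a median of 13935 bases and the intron after the last exon 9151 bases. For all exonic circRNAs these medians were 6050 and 4442 bases, and the median of all introns of basic GENCODE transcripts was 1420 bases. The leading circle of each of the 8 hosts, the one with most reads, had medians of 23233 and 12334 bases. As many circles share a gene and its introns, these values were not tested. Of the 41 circles, 13 (31.7%) began at exon 2 of their transcript, against 26.2% of all exonic circRNAs. The annotated start codon of the host protein lay inside 6 (14.6%, against 14.4%), among them circFbxw7 exon 4 and circZfp609 exon 2. Only coding sequence made up 34 (82.9%, against 83.3%).

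Single hosts differed widely in these features. circFoxo3 exon 3, at chr10:42196466-42197901 on the minus strand, is a single exon of 1436 nt, of which 1398 nt are coding, and the intron before it measures 76914 bases. The circFbxw7 exon at chr3:84903501-84904079 on the plus strand is 579 nt long between introns of 39300 and 50795 bases. It also lies inside the span of a second annotated gene. circZfp609 exon 2, at chr9:65794622-65795495 on the minus strand, measures 874 nt between introns of 31970 and 63420 bases. The smallest of the leading circles was circAsxl1 exons 2 to 4, at chr2:153352189-153357178 on the plus strand, with 195 nt, all coding. An exception to the long introns was circItch exons 10 to 14, at chr2:155182158-155192210 on the plus strand, with 1446 bases of intron before it. The leading circles of the secretory pathway hosts hold several exons. circMan1a2 exons 7 to 12 (chr3:100578476-100620152, minus strand) joins 843 nt, circRhobtb3 exons 4 to 8 (chr13:75892906-75917847, minus strand) 867 nt, and circRtn4 exons 4 to 5 (chr11:29733633-29736498, plus strand) 347 nt.

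Detection differed by fraction. Of the 41 circles, 35 were listed in the whole cell, 19 in the cytoplasm and 3 in the nucleus. Of all 16171 circRNAs, these lists held 10700, 9648 and 1166. The 13 listed in both the cytoplasm and the whole cell were 68.4% of the cytoplasmic and 37.1% of the whole-cell circles of these hosts, and over all circRNAs these shares were 49.8% and 44.9%. The 3 nuclear circles were circFoxo3 exon 3, circAsxl1 exons 2 to 4 and circRhobtb3 exons 3 to 4. All 3 were listed in the cytoplasm as well, as were 472 of all 1166 nuclear circRNAs (40.5%). circFoxo3 and circAsxl1 were listed in the nucleus and the cytoplasm but not in the whole cell. circZfp609 was listed in the whole cell only. Together the 41 circles took between 0.183% and 0.373% of the junction reads of a library.

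The leading circle made up very different parts of a host's circular reads. For Fbxw7, the exon 4 circle held 225 of 280 junction reads over all libraries, or 80.4% (95% exact binomial interval 75.2 to 84.8). For Rtn4, the exon 4 to 5 circle held 78 of 91 (85.7%, interval 76.8 to 92.2). In the cytoplasm it was the only listed Rtn4 circle (54 of 54 reads). In the whole cell it held 24 of 37 (64.9%, interval 47.5 to 79.8). Rhobtb3 and Man1a2 had no such dominant circle, with 24.7% (interval 20.7 to 29.0) and 22.2% (interval 17.9 to 26.9) for the leading one. Summed over the 4 libraries, the share differed between fractions. The Man1a2 circle of exons 7 to 12 held 44.3% of the Man1a2 reads in the cytoplasm (58 of 131, interval 35.6 to 53.2) and 9.05% in the whole cell (20 of 221, interval 5.62 to 13.6). The KO libraries carried that difference: in the cytoplasm the share was 10% and 20% in WT but 55.1% and 53.2% in KO, and in the whole cell it was 7.69% and 6.82% in WT but 6% and 14.5% in KO. The Itch circle of exons 10 to 14 held 75% in the cytoplasm (33 of 44, interval 59.7 to 86.8) and 21.1% in the whole cell (12 of 57, interval 11.4 to 33.9). These intervals cover counting error alone, and the 2 fractions were listed separately.

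Detection alone does not compare the genotypes, and the first comparison asked how the circles of these hosts differed between KO and WT in each fraction. In the cytoplasm, 17 of the 19 listed circles had the 10 reads over 4 libraries needed for a test, and 5 of them had an adjusted p under 0.05 (quasi-likelihood test of edgeR, p-values adjusted by the Benjamini-Hochberg method over all circRNAs of the fit). Of all 8917 circRNAs tested there, 53.5% passed, 30% higher and 23.5% lower in KO. A pair of Man1a2 circles rose, and circFoxo3, a Rhobtb3 circle and an Fbxw7 circle fell. Over the 17 circles the median log2 change was 0.19, and over all circRNAs tested it was -0.25. WT and KO libraries did not overlap, in reads per 100000, for 10 of the 17, against 82.2% of all circRNAs tested.

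The 2 Man1a2 circles that rose begin at the same exon. The circle of exons 7 to 12 had 1 and 5 junction reads in the WT against 27 and 25 in the KO cytoplasmic libraries. It was higher in KO by 3.62 ± 0.71 (SE) on the log2 scale, or 12.3-fold (adjusted p = 0.000569). The circle of exons 7 to 9 (334 nt) had 1 and 2 reads in WT against 10 and 8 in KO, a log2 change of 3.01 ± 0.62 (adjusted p = 0.000731). Reads of the KO libraries exceeded those of the WT libraries without overlap for each of these circles, and both kept an adjusted p under 0.05 in the 4 fits without 1 library, where the largest was 0.0494 for the first and 0.0203 for the second. The circles of exons 9 to 12 and of exons 11 to 12, which end where the first one ends, did not pass. The circle of exons 9 to 12 had 2 and 10 reads in WT against 5 and 5 in KO (log2 change 0.28 ± 0.59, adjusted p = 0.702). That of exons 11 to 12 had 5 and 6 in WT against 5 and 5 in KO (log2 change 0.40 ± 0.53, adjusted p = 0.583). Per 100000 junction reads it stood at 6.43 and 7.32 in WT against 9.88 and 7.89 in KO, without overlap, as for 82.2% of all circRNAs tested there.

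Each of the 3 circles that fell lost its call when a KO library was left out. circFoxo3 exon 3 had 7 and 7 reads in the WT against 1 and 0 in the KO cytoplasmic libraries, a log2 change of -3.03 ± 0.89 (adjusted p = 0.00777). Its groups did not overlap, and without KO replicate 2, the library at 0, the adjusted p was 0.302 (without either WT library it had too few reads for a test). The Rhobtb3 circle of exons 5 to 7 had 8 and 11 reads in WT against 1 and 1 in KO, a log2 change of -2.59 ± 0.69 (adjusted p = 0.00482), with 0.119 and 0.148 when KO replicate 1 or KO replicate 2 was left out. The Fbxw7 circle of exons 2 to 3 had 6 and 9 reads in WT against 2 and 0 in KO (log2 change -2.25 ± 0.79, adjusted p = 0.0222). Without KO replicate 2 its adjusted p was 0.553. With DESeq2 in place of edgeR these 3 circles did not pass (adjusted p = 0.107, 0.0862 and 0.145 in the order given here).

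The most abundant circle of these hosts was uneven between the KO replicates. circFbxw7 exon 4, whose exon carries the start of the Fbxw7 protein, had 54 and 41 reads in the WT cytoplasm and 4 and 32 in the KO cytoplasm. The log2 change was -0.93 ± 0.77. The leading circles of Rhobtb3 and Itch were more even. circRhobtb3 exons 4 to 8 had 11 and 11 reads in WT against 13 and 9 in KO (log2 change 0.55 ± 0.52, adjusted p = 0.369), and circItch exons 10 to 14 had 9 and 6 in WT against 10 and 8 in KO (log2 change 0.80 ± 0.48, adjusted p = 0.16; both KO libraries above both WT libraries per 100000 reads). circRhobtb3 exons 5 to 8, in contrast, spread widely within both genotypes, with 15 and 5 reads in WT against 3 and 19 in KO. circRtn4 exons 4 to 5 had 13 and 17 reads in WT against 4 and 20 in KO. In KO replicate 1 circFbxw7, circRtn4 and this Rhobtb3 circle were all low, and none of the 3 had an adjusted p under 0.05 (0.305, 0.804 and 0.405).

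**Figure D2:**
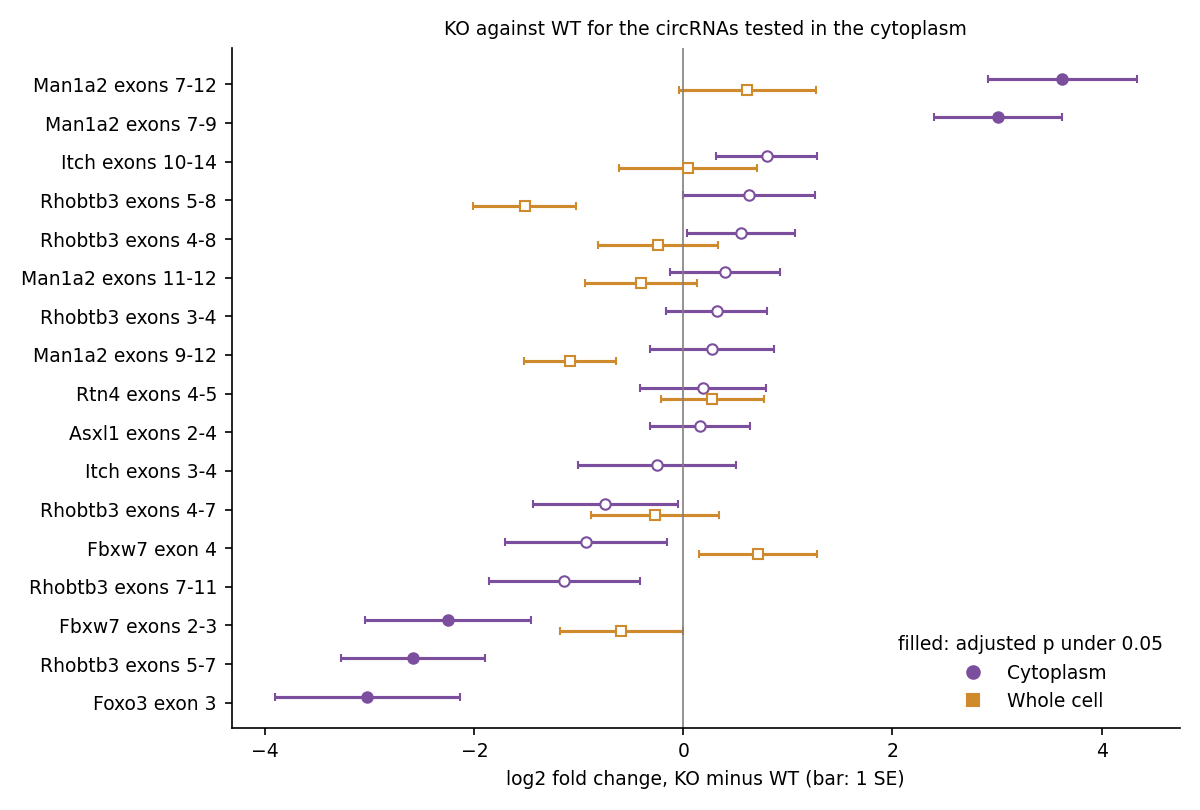
Log2 fold change, KO minus WT, with 1 SE for the 17 circles tested in the cytoplasm (circles) and, where tested, in the whole cell (squares); filled points have an adjusted p under 0.05. The 2 Man1a2 circles starting at exon 7 lie at 3.62 and 3.01 in the cytoplasm, and circFoxo3 lies at -3.03.

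In the whole cell, 32 of the 35 listed circles were tested and 0 passed, as did 0% of all 8903 circRNAs. With an unadjusted p under 0.05, 10 circles of these hosts (7 higher, 3 lower in KO) stood beside 3405 of all circRNAs (38.2%, with 19.9% higher and 18.4% lower), and DESeq2 called 0 of the 32 and 7 in all. Scaling by library total gave 3 calls among the 32 (2003 in all), and DESeq2 size factors in edgeR gave 2 (1504 in all). The median log2 change of the 32 circles was 0.59, against -0.08 over all circRNAs tested, with 21 values above 0 and 11 below. The smallest adjusted p among them, 0.058, belonged to the Man1a2 circle of exons 2 to 3, with 1 and 0 reads in WT against 7 and 7 in KO. The smallest in the whole table, over all circRNAs, was also 0.058. circRhobtb3 exons 5 to 8 had 13 and 17 reads in the WT against 5 and 5 in the KO whole cell (log2 change -1.52 ± 0.49, adjusted p = 0.0698). circMan1a2 exons 2 to 12, the longest of its gene, had 11 and 5 reads in WT against 1 and 2 in KO (adjusted p = 0.066).

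Leading circles with reads in both fractions had no call in the whole cell. circMan1a2 exons 7 to 12 had 5 and 3 reads in WT against 3 and 9 in KO whole cells, overlapping groups with a log2 change of 0.61 ± 0.66. circFbxw7 exon 4 had 20 and 16 reads in WT against 39 and 19 in KO (log2 change 0.71 ± 0.56, adjusted p = 0.359), with WT replicate 1 and KO replicate 2 nearly level. circRhobtb3 exons 4 to 8 had 20 and 15 reads in WT against 21 and 8 in KO. circZfp609 exon 2, seen in this fraction alone, had 2 and 3 reads in WT against 7 and 5 in KO (log2 change 1.26 ± 0.56, adjusted p = 0.163). Its groups did not overlap, which was true of 17 of the 32 circles and of 70.1% of all circRNAs tested.

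The nuclear libraries could show 3 circles, of which 0 passed the test, against 10.1% of the 651 nuclear circRNAs tested. With an unadjusted p under 0.05 there were 0 of the 3 and 170 in all (26.1%), and DESeq2 called 0 of the 3 and 0 in all. circAsxl1 exons 2 to 4 had 0 and 1 reads in the WT nuclei and 5 and 5 in the KO nuclei (log2 change 2.19 ± 1.06, adjusted p = 0.179). The KO nuclear libraries were also the deeper ones, and per 100000 junction reads it stood at 0 and 38.0 in WT against 134 and 114 in KO. The groups did not overlap, as for 62.2% of the nuclear circRNAs tested. circFoxo3 exon 3 had 1 and 2 reads in WT against 2 and 5 in KO (log2 change 0.26 ± 0.87), and circRhobtb3 exons 3 to 4 had 3 and 2 in WT against 2 and 4 in KO (log2 change -0.66 ± 0.80). For all other circles of these hosts, a true nuclear count of 0 would allow a level up to the limits given above (counting error alone). Their absence from the nuclear list need not mean an absence of reads.

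Whether the nucleus-to-cytoplasm distribution of a circle changed with the genotype was tested with a term for genotype by fraction, fitted to the 4 nuclear together with the 4 cytoplasmic libraries. Of 17 circles tested, 3 had reads in both fractions, and 0 of the 17 passed, as did 0% of all 9266 circRNAs. With an unadjusted p under 0.05 there was 1 of these circles among 115 circRNAs in all (1.24%), and DESeq2 called 0 of them and 1 over the table. That circle was circFoxo3. Per 100000 junction reads it stood at 45.7 and 75.9 in the WT and 53.4 and 114 in the KO nuclei, and at 9 and 8.54 in the WT and 1.98 and 0 in the KO cytoplasm. The change of its nucleus-to-cytoplasm ratio was 3.51 ± 1.07 on the log2 scale (unadjusted p = 0.0102, adjusted p = 1.0). For circAsxl1 the change was 2.51 ± 1.17 (unadjusted p = 0.0608), with cytoplasmic levels of 9 and 12.2 in WT against 7.90 and 14.2 in KO. For circRhobtb3 exons 3 to 4 it was -0.63 ± 0.72.

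Summing all circles of a host gave larger counts. In the cytoplasm 7 hosts could be tested and 2 passed, against 45.8% of the 3774 host genes tested. Man1a2 rose from 10 and 25 reads in WT to 49 and 47 in KO, a log2 change of 1.95 ± 0.38 (edgeR, adjusted p = 0.00369, and 0.0948 without scaling). Foxo3, with its single circle, fell (log2 change -3.08 ± 0.85, adjusted p = 0.015, and 0.152 without KO replicate 2). Fbxw7 had 60 and 50 reads in WT against 6 and 32 in KO (log2 change -1.07 ± 0.51, adjusted p = 0.111), and this value moved with the library left out: without KO replicate 2 it was -2.51 (adjusted p = 0.000869) and without KO replicate 1 it was -0.27 (adjusted p = 0.608). Without WT replicate 2 it was -1.42 (adjusted p = 0.0157). Rhobtb3, the host with most circular reads, had 53 and 48 reads in WT against 28 and 37 in KO from KO libraries of lower depth. Per 100000 junction reads that was 68.1 and 58.6 against 55.3 and 58.4, a log2 change of -0.16 ± 0.32.

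In the whole cell 6 hosts were tested and 0 passed, against 8% of the 3701 host genes tested. With an unadjusted p under 0.05 there was 1, Itch, among 1256 host genes in all (33.9%), and DESeq2 called 0 of the 6 and 3 in all. Itch had 10 and 10 reads in WT against 14 and 23 in KO (log2 change 0.88 ± 0.34, adjusted p = 0.112). Fbxw7 had 28 and 24 in WT against 48 and 32 in KO (log2 change 0.62 ± 0.32, adjusted p = 0.213). Man1a2 had 65 and 44 reads in WT against 50 and 62 in KO, so that the groups overlapped in this fraction (log2 change 0.04 ± 0.32). In the nucleus 3 hosts were tested and 0 passed, against 12.4% of 564. Their unadjusted count was 0 against 143 in all (25.4%), and DESeq2 called 0 of them and 0 in all.

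Since Man1a2 passed in the cytoplasm and not in the whole cell, the difference between the fractions was itself tested in a fit over the 8 cytoplasmic and whole-cell libraries, a comparison added after these values were seen. Of 8 hosts in that fit 5 had reads in both fractions, and 1 passed, against 16.4% of 4654 host genes. The Man1a2 change was larger in the cytoplasm by 1.86 ± 0.53 on the log2 scale (adjusted p = 0.0274). The sums cover different circles, as 5 Man1a2 circles were listed in the cytoplasm and 12 in the whole cell, with unlisted circles taken as 0. With DESeq2 it was 1.84 (adjusted p = 0.0721), and 4 of the 8 fits without 1 library lost the call, with an adjusted p of at most 0.182. For Fbxw7 the change was lower in the cytoplasm than in the whole cell by 1.74 ± 0.65 (log2 difference -1.74, adjusted p = 0.0859). For single circles, 39 entered this fit and 0 passed, against 7.41% of 13729. Of the 39, 13 had reads in both fractions, and for the others the difference between fractions has no estimate. With an unadjusted p under 0.05 there were 3 of them and 1922 in all (14%), DESeq2 called 0 of them and 150 in all, and the value for circMan1a2 exons 7 to 12 was 2.94 ± 1.02 (adjusted p = 0.081).

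**Figure D3:**
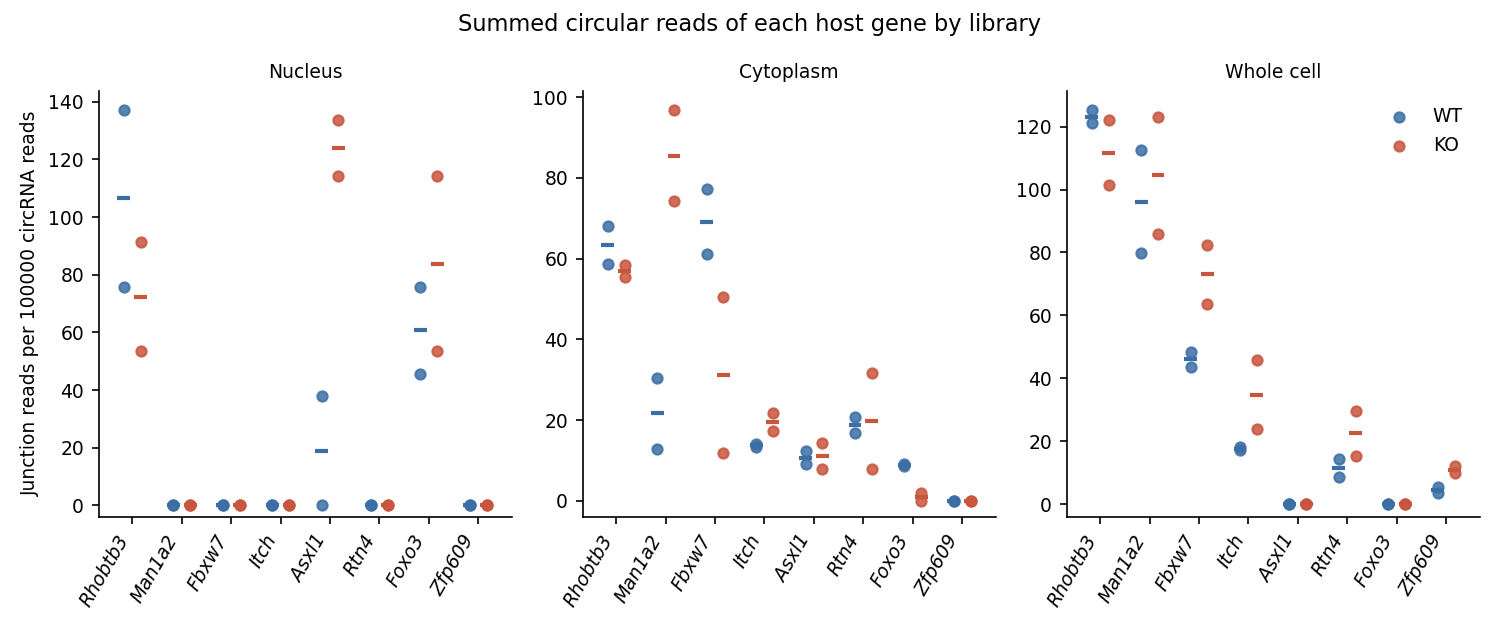
Junction reads per 100000 circRNA reads, summed over the circles of each host, in the nuclear, cytoplasmic and whole-cell libraries; each point is a library, blue for WT and red for KO, and bars are means of 2. In the cytoplasm the KO libraries lie above WT for Man1a2 (96.8 and 74.2 against 12.8 and 30.5) and below WT for Fbxw7 (11.8 and 50.5 against 77.1 and 61.0).

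The mRNA libraries show the linear transcripts of the same genes. The direction of every mRNA value here follows the sample titles. The column heading inside each of these tables names an alignment file of the other genotype, and Xpo4, the edited gene, did not tell the groups apart. Xpo4 had 657, 614 and 685 counts in the libraries titled WT and 712, 504 and 687 in those titled KO (log2 change 0.18 ± 0.11, adjusted p = 0.193). Its circles, listed in the whole cell alone, had 10 and 9 reads in WT against 12 and 15 in KO. These values check neither title nor heading.

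Of the 10 hosts, 9 were tested in mRNA and 5 passed (adjusted p under 0.05), against 48.7% of the 14688 genes tested, of which 25.1% were higher and 23.6% lower in the libraries titled KO. The 4 called lower were Foxo3, Zfp609, Asxl1 and Smarca5, and Man1a2 was called higher. Foxo3, a forkhead transcription factor, had 17.4, 16.2 and 16.0 FPKM (reads scaled by exon length and by the library total) in WT against 10.9, 9.74 and 10.6 in KO, a log2 change of -0.66 ± 0.06 (adjusted p = 1.26e-06). Zfp609 had 6.62, 5.56 and 6.06 FPKM in WT against 4.69, 3.02 and 4.67 in KO (log2 change -0.56 ± 0.13, adjusted p = 0.00263). Asxl1, a partner of a histone H2A deubiquitinase, had 14.1, 14.9 and 14.4 FPKM in WT against 11, 9.86 and 11.2 in KO (log2 change -0.44 ± 0.06, adjusted p = 4.67e-05). The titles did not overlap for any of these 3, nor for 7 of the 9 hosts, against 57.8% of all genes tested. Smarca5, the ATPase of the ISWI chromatin remodelling complexes, had between 23.0 and 24 FPKM in WT against 20.2 to 21.3 in KO (log2 change -0.18 ± 0.05, adjusted p = 0.0136), and lost the call without WT replicate 2 (adjusted p = 0.0688) or KO replicate 1 (0.0534). The counting used no strand, an exon of Asxl1 overlaps 2500004C02Rik on the other strand, and an exon of Smarca5 overlaps Gm45872, so the counts of both genes are uncertain to that extent.

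Man1a2 was the host that was higher in the libraries titled KO, with 15.5, 14.2 and 14.5 FPKM in WT against 17.6, 15.9 and 17.6 in KO. The log2 change was 0.21 ± 0.06 (adjusted p = 0.0115, and 0.0662 without WT replicate 2). The ubiquitin ligase genes and the other secretory pathway genes did not pass. Fbxw7 had 3.05, 2.46 and 2.59 FPKM in WT against 2.45, 1.89 and 2.37 in KO (log2 change -0.27 ± 0.11, adjusted p = 0.0657). Itch differed by 0.01 ± 0.06, Rhobtb3 by 0.09 ± 0.06 and Rtn4 by -0.05 ± 0.05 on the log2 scale, and an exon of Rtn4 overlaps Eml6 on the other strand. None of the 3 had an adjusted p under 0.05 (0.896, 0.252 and 0.449), though Rhobtb3 reached 0.0275 without KO replicate 2.

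**Figure D4:**
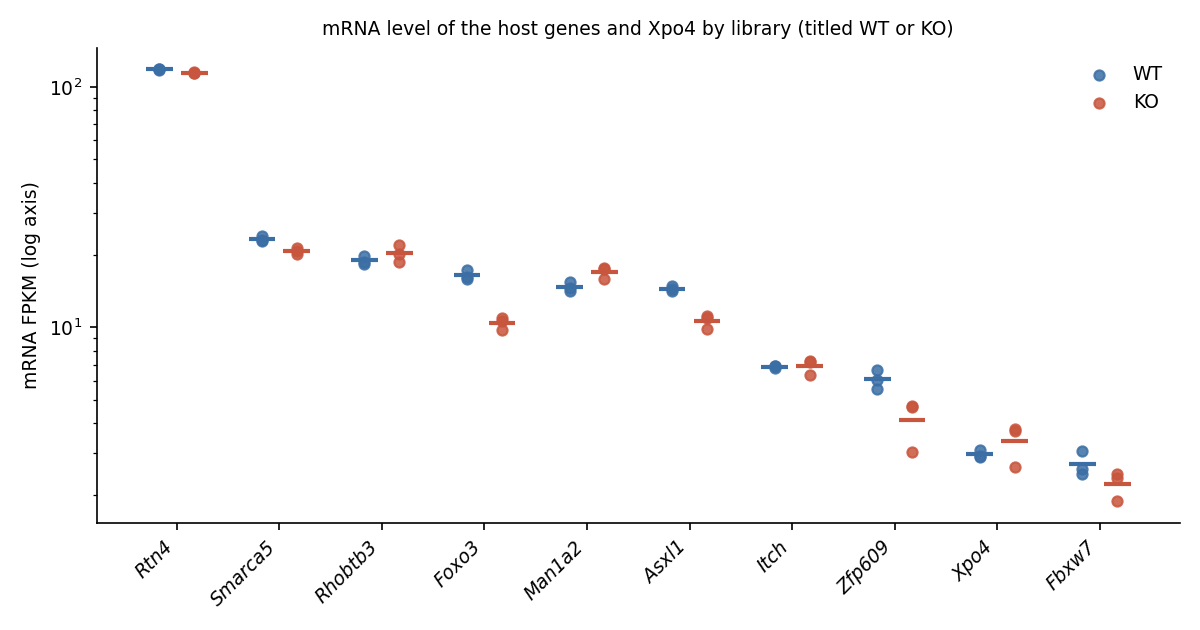
mRNA level in FPKM, on a log axis, of 9 host genes and of Xpo4 in the 3 libraries titled WT (blue) and the 3 titled KO (red); bars are means. The titles separate for Foxo3 (16.0 to 17.4 FPKM in WT, 9.74 to 10.9 in KO), while Rhobtb3, Itch and Xpo4 overlap; Cdyl is listed at 0 in all 6 and is not drawn.

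Cdyl, a chromodomain protein and a well-known source of circRNA in other cells, was listed at 0 in all 6 mRNA libraries and had no circle in any list. The 4 annotated genes overlapping its span were at 0 as well. The nearest genes with at least 100 counts over the 6 libraries were Eci2, 632737 bases to the left with 7123 counts, and Rpp40, 19409 bases to the right with 1075. Smarca5 had no circle either, but its mRNA was the second highest of the hosts, at 23.4 ± 0.541 FPKM (SD, n = 3) in WT.

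Circle and mRNA levels of the hosts did not follow the same order. In WT, Rtn4 had the most mRNA with 118 ± 0.165 FPKM (SD, n = 3) and 11.6 ± 4.15 whole-cell junction reads per 100000 (SD, n = 2). Fbxw7 had the least mRNA of the 9 expressed hosts, 2.70 ± 0.310 FPKM, and 46.0 ± 3.47 junction reads per 100000. Rhobtb3 and Man1a2, at 19.0 ± 0.751 and 14.7 ± 0.652 FPKM, had 123 ± 2.87 and 96.2 ± 23.1 junction reads per 100000, and both Rhobtb3 libraries lay above both Man1a2 libraries. Below them followed Itch (17.7 ± 0.593) and Zfp609 (4.45 ± 1.40). Foxo3 and Asxl1, at 16.5 ± 0.743 and 14.5 ± 0.379 FPKM, had mRNA like Man1a2 and no circle in the whole-cell list. Across the 9 hosts Spearman's rho between the 2 levels was -0.14 in WT and -0.03 in KO, a description of few genes in separate RNA preparations. Smarca5, Foxo3 and Asxl1 entered it with 0 because the whole-cell list held no circle of theirs.

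**Figure D5:**
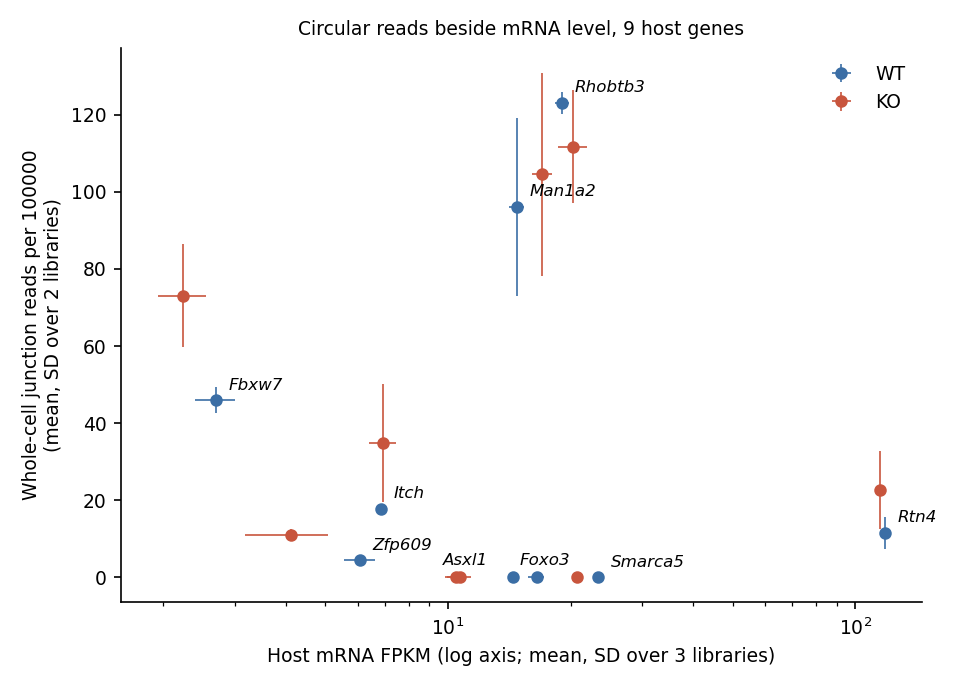
Whole-cell junction reads per 100000 (mean and SD of 2 libraries) against host mRNA in FPKM on a log axis (mean and SD of 3 libraries) for 9 hosts, WT in blue with names and KO in red. Fbxw7 lies at 2.70 FPKM and 46.0 junction reads per 100000 in WT, and Rtn4 at 118 FPKM and 11.6.

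Side by side, the changes in circles and in mRNA could point the same way or not. For Foxo3 the cytoplasmic circle (log2 change -3.03) and the mRNA (-0.66) were both lower in KO. For Man1a2 the summed cytoplasmic circle reads (1.95) and the mRNA (0.21) were both higher. Of its single circles in the cytoplasm, only the pair that begins at the same exon passed (3.62 and 3.01). The other Man1a2 circles tested there had smaller values above 0 and did not pass (0.28 and 0.40), so the rise was not shown for every circle of the gene. Zfp609 had more circle reads in the KO whole cell (1.26 ± 0.56, not past the threshold) and less mRNA (-0.56). If the column headings were right in place of the titles, each of these mRNA directions would turn, and with it which hosts point the same way. Circle and mRNA libraries came from separate preparations, and the differences between these changes were not tested.

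A list of 20 other genes known for circRNAs gives a comparison. Of these, 17 had a circle in the data. In the cytoplasm 17 could be tested as host sums and 3 fell while 0 rose, against 20.5% lower and 25.4% higher over all host genes. In the whole cell 1 of 15 rose and 1 fell, against 3.89% and 4.11% of all. In the nucleus 0 of 8 rose and 2 fell, against 1.95% and 10.5%. In mRNA 3 of 18 were higher and 4 lower in the libraries titled KO, against 25.1% and 23.6%.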

How the data were processed

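RNase R-treated RNA of NIH/3T3 nuclei, cytoplasm and whole cells (2 WT and 2 KO libraries each) and RNA for mRNA-seq (3 and 3) were sequenced by the authors. The authors called circRNAs with find_circ on the mouse genome GRCm38 and deposited raw counts of back-splice junction reads, 1 list for each fraction. mRNA counts per gene were made by the authors with HISAT2 and featureCounts 2.0.0 without strand. FPKM and reads per 100000 were computed here from these counts. The 10 genes, the circle lists and the other lists were chosen with earlier results of these data known.

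A circRNA not listed in a fraction was taken as 0. Groups followed the sample titles, with 0 columns left unmapped. edgeR 4.0.16 (R 4.3.3) was run with TMM scaling and its quasi-likelihood test on features with 10 or more reads over the fit (filterByExpr for mRNA), with Benjamini-Hochberg adjustment over all features and 0.05 as the threshold. An SE is the log2 change divided by the root of F. The fit across cytoplasm and whole cell was added after the values were seen. The alternatives were scaling by library total, DESeq2 size factors, no scaling, no filter, DESeq2 1.42.0, the replicate block, and each library left out. The fitting code was tested on simulated data. Named are each host's leading circle, the second circle where it has 20 reads or more, called circles by smallest p, and Xpo4. Other circles and counts were named after their values were seen. Same-numbered libraries were not tied by the labels, and their deviations correlated by -0.0133 (nucleus), -0.00419 (cytoplasm) and 0.00433 (whole cell), and by 0.0914, 0.0578 and -0.112 for the mRNA numbers, so the numbers were not taken as pairs. Depth is given with the results. Intervals are exact binomial at 95% and, like the limit of 3 reads for a 0, cover counting error only. Exons, introns and junction bases came from GENCODE annotation and GRCm38, read with pysam 0.24.0.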

Additional observations from a re-analysis of the deposited data

Results flagged for a closer look

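The summed junction reads of Fbxw7 were lower in KO in the cytoplasm and higher in KO in the whole cell. Neither difference passed (edgeR, adjusted p = 0.111 and 0.213), though the cytoplasmic one did with scaling by library total. The circle of exons 2 to 3 alone was lower in both (log2 change -2.25 and -0.59). Per 100000 junction reads, the cytoplasmic mean was 69.1 in WT and 31.2 in KO, and the whole-cell mean was 46.0 in WT and 73 in KO. The genotypes did not overlap in either fraction, as was true of 76.1% of all host genes tested in the cytoplasm and 62.4% in the whole cell. The test of the difference between the fractions did not pass (log2 difference -1.74 ± 0.65, edgeR, adjusted p = 0.0859). This adjusted p ranged from 0.00175 to 0.367 when 1 library was left out. The cytoplasmic sum covers 2 listed Fbxw7 circles and the whole-cell sum 4.

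The Man1a2 change between genotypes differed between the fractions, by 1.86 on the log2 scale (edgeR, adjusted p = 0.0274). The cytoplasmic sum covers 5 listed circles and the whole-cell sum 12, so they are not sums of the same circles. The adjusted p was 0.136 without WT cytoplasm replicate 1, 0.0932 without WT whole cell replicate 1, 0.182 without KO whole cell replicate 1 and 0.083 without KO whole cell replicate 2.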

How the results depend on the processing

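Calls among the circles and hosts changed with the setting, and the cause was not tested. For cytoplasmic circles 5 calls became 2 with DESeq2, 3 without scaling and 2 to 4 without 1 library. The 2 calls kept by DESeq2 were the Man1a2 circles from exon 7, of which that of exons 7 to 12 had an adjusted p of 0.0546 without scaling. For whole-cell circles 0 calls became 3 with scaling by total, 2 with DESeq2 size factors, 4 with the replicate block and 0 to 1 without 1 library. For cytoplasmic host sums 2 became 3 with scaling by total, where Fbxw7 also passed. They became 1 with DESeq2 (which gave Foxo3 no adjusted p) and 1 without scaling. With the replicate block they became 0 (Man1a2 adjusted p = 0.0707, Foxo3 0.0883, as for all host genes). In the cytoplasm against whole cell test 0 circles became 1 with scaling by total, 1 with the replicate block and 0 to 2 without 1 library, and 1 host became 2 with scaling by total, 0 with DESeq2, 0 with the replicate block, 0 without scaling and 0 to 2 without 1 library. In mRNA 5 became 3 to 6 without 1 library, and Fbxw7 passed with the replicate block (0.0319) or no filter (0.0391). Xpo4 passed without KO replicate 2 (0.000252).

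Directions turned without scaling for cytoplasmic circAsxl1 and its host sum (-0.38), circMan1a2 exons 9 to 12 (-0.26), circRtn4 exons 4 to 5 and its host sum (-0.32) and the nuclear Rhobtb3 sum (0.25), and with the replicate block for the Rhobtb3 difference between fractions (0.000663). Without 1 library, these log2 changes spanned 0. In cytoplasmic circles they ran from -0.25 to 1.04 for Asxl1, -0.61 to 1.29 for Man1a2 exons 9 to 12, -0.81 to 1.38 for Rtn4, -0.64 to 1.86 for Rhobtb3 exons 5 to 8 and -2.48 to 0.38 for Fbxw7 exon 4. In whole-cell circles they ran from -0.62 to 0.84 for Itch exons 10 to 14, -0.11 to 0.98 for Rtn4, -0.026 to 1.59 for Man1a2 exons 7 to 12, -1.03 to 0.31 for Fbxw7 exons 2 to 3 and -0.76 to 0.65 for Rhobtb3 exons 4 to 8. In host sums they ran from -0.40 to 0.59 for Asxl1, -1.21 to 0.93 for Rtn4 and -0.44 to 0.063 for Rhobtb3 in the cytoplasm, and from -0.22 to 0.37 for Man1a2 and -0.26 to 0.14 for Rhobtb3 in the whole cell. For the difference between fractions they ran from -0.037 to 1.34 for circItch exons 10 to 14, -1.47 to 0.49 for circRtn4 and -0.23 to 0.085 for the Rhobtb3 sum, and in mRNA from -0.012 to 0.074 for Itch. Of the other values under single settings 354 kept direction and side of the threshold, and 264 did so without 1 library.

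Over all features, calls in the nucleus were 66 for circles, 43 with scaling by total, 40 with no filter and 0 with DESeq2 or without scaling, and 70 for hosts, 0 with DESeq2, the block or no scaling. In the cytoplasm they were 4768 for circles (2671 higher, 2097 lower), 2160 with DESeq2 (1763 higher, 397 lower) and 2353 without scaling (837 higher, 1516 lower), where the median log2 change was -0.77 against -0.25, and 1729 for hosts, 237 with DESeq2, 0 with the block and 1158 without scaling. In the whole cell they were 0 for circles, 2003 with scaling by total, 1504 with DESeq2 size factors, 2054 with the block and 7 with DESeq2, and 296 for hosts, 705, 537, 760 and 3 under the same settings. In the test between fractions they were 1018 for circles, 150 with DESeq2 and 22 without scaling, and 761 for hosts and 142 with DESeq2. The nuclear libraries were the shallowest, and the nuclear circles of these hosts had at most 5 reads in a library.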

Other observations

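Among the other genes known for circRNAs, Tulp4, Nfix and Crim1 had the most whole-cell junction reads, with 1675, 1406 and 618. Nfix, a transcription factor gene, had 1849 and 1889 junction reads in the WT and 694 and 700 in the KO cytoplasmic libraries. In the whole cell it had 10 and 13 reads in WT but 697 and 686 in KO, so that WT was the higher genotype in the cytoplasm and the lower one in the whole cell. The difference of the log2 changes between the fractions was -6.88 ± 0.61 (edgeR, adjusted p = 7.57e-05). Nfix mRNA differed by 0.04 ± 0.06 on the log2 scale (adjusted p = 0.649). Crim1 had 130 and 107 reads in the WT and 106 and 142 in the KO cytoplasm. Nfix was singled out after its values were seen, and whether these libraries carry the right fraction and genotype titles was not tested.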
